A study of Homo sapiens with 24 samples.

Results

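The collagen genes were taken as the protein-coding genes whose symbol is COL, a number, A and a number, such as COL1A1. By this rule 44 of the 21386 genes counted are collagens, and they were sorted by the type of collagen they encode into 11 fibrillar genes, 8 basement membrane genes (types IV, XV and XVIII), 10 FACIT genes and 15 others. RNA was sequenced from A375, a melanoma cell line, and A549, a lung adenocarcinoma cell line, in 24 libraries that make 8 groups of 3 biological replicates. In each line, the groups were shMCM7 cells and parental cells, each kept with 1 μg/ml doxycycline (Dox) for 72 hours or without it (noDox), and cells of all groups were held at the G1/S boundary by a double thymidine block. The shMCM7 cells carry a Dox-inducible shRNA against MCM7, a subunit of the replicative helicase, delivered by lentivirus at a multiplicity of infection of 1.4, and they are a puromycin-resistant population rather than a clone. The parental cells were not transduced, and no library of a scrambled shRNA was analysed here.

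Collagens are trimers of alpha chains wound into a triple helix, in the endoplasmic reticulum, with the help of prolyl and lysyl hydroxylases. Fibrillar collagens (types I, II, III, V, XI, XXIV and XXVII) assemble into fibrils once their propeptides are cut off, and FACIT collagens sit on the surface of such fibrils. Type IV collagen forms the network of the basement membrane, the sheet that invading tumour cells have to cross, and types XV and XVIII are proteoglycans of basement membrane zones. The remaining group holds beaded filament type VI, anchoring fibril type VII, short-chain types VIII and X, transmembrane types XIII, XVII, XXIII and XXV, and types XXVI and XXVIII.

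Levels are given as CPM, the counts of a gene per 1000000 counted reads, scaled with edgeR's TMM factors over the 24 libraries. The A375 libraries held 146656792 to 283721575 counts and the A549 libraries 17911338 to 23452823, so that 3 counts, used as the floor of detection for counting error alone, amounted to 0.0104 to 0.0202 CPM in A375 libraries and 0.132 to 0.168 CPM in those of A549. In A375 shMCM7 cells, MCM7 itself was at 76.1, 74.4 and 75.9 CPM with Dox and at 128, 342 and 349 CPM without it, so the library labelled shMCM7 noDox 1 was low in MCM7 although no Dox is stated for it. A375 parental cells had 343, 333 and 344 CPM without Dox and 360, 345 and 346 CPM with it. In A549, MCM7 was low in the libraries labelled shMCM7 Dox 3 (98.2 CPM), shMCM7 noDox 2 (102 CPM) and parental noDox 2 (92.4 CPM), and lay between 305 and 346 CPM in the other 9, so it goes against the A549 labels. When the libraries were matched by their values to the study's own normalised counts, most A549 libraries carried other names there and several fell in another group, whereas all A375 names agreed. Under those names the A549 libraries low in MCM7 are the replicates of shMCM7 cells with Dox. The labels were kept for every group and test, so that an A549 value by label may compare mixed groups, and A549 values are given by library. The library labelled A375 parental Dox 3 stood apart in types I and III collagen, as described with those genes. The melanocyte factor SOX10 was at 487 to 657 CPM in A375, whereas the pigment genes TYR and MLANA had at most 0.00837 and 0.00691 CPM there. In A549, KRT8 was at 1860 to 2825 CPM, while the alveolar genes NKX2-1 and SFTPB had at most 0.0549 and 0.044 CPM. Neither line thus carried the full marker set of the tissue it came from. At the limits given below, 5 of 6 tested melanocyte markers were higher in A375 than in A549, and MITF was not (log2 -0.37). Of 6 tested lung epithelial markers, 5 were lower in A375, whereas NKX2-1 was higher there (log2 6.24). Of all genes, 33% were higher and 27.6% lower in A375.

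The comparison of shMCM7 cells with and without Dox in A375 asks which collagens changed when MCM7 was knocked down in arrested cells. Collagens moved both ways rather than together. With Dox, transmembrane COL13A1, fibril-associated COL12A1, fibrillar COL5A1 and COL11A1 and the weakly expressed COL28A1 were up-regulated, whereas basement membrane COL4A4, short-chain COL8A2 and the FACIT genes COL14A1 and COL9A1 were down-regulated. A gene counts as up- or down-regulated here at 1.5-fold or more with p under 0.01 and an FDR under 0.05, from edgeR's quasi-likelihood test with the FDR taken over every gene tested. Of the 44 collagens, 40 had enough counts to be tested, and 5 of them (12.5%) rose and 4 (10%) fell. Among all 16087 genes tested, 5.58% rose and 6.45% fell. The 4 collagens not tested were COL10A1, COL23A1, COL6A5 and COL6A6, which had 0 to 15 counts in every A375 library. The median log2 fold change of the 40 tested collagens was 0.22, with 27 above 0 and 13 below, and that of all genes was 0.0045.

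Each class held few called members, and differences between classes were not tested. Of the 11 fibrillar genes, all tested, 2 rose and 0 fell. When changes of any size were counted, 5 of the 11 went up and 3 went down at an FDR under 0.05, against 3309 and 3599 of all 16087 genes. Of the 8 basement membrane genes, 0 rose and 1 fell. Of the 10 FACIT genes, 1 rose and 2 fell, and of the 11 other genes tested, 2 rose and 1 fell. The median log2 fold change was 0.32 for the fibrillar, 0.19 for the basement membrane, 0.06 for the FACIT and 0.36 for the other genes. A further group of collagens moved by less than 1.5-fold at an FDR under 0.05. Over all sizes of change, 13 collagens had an FDR under 0.05 in the upward direction and 9 in the downward direction, against 3309 and 3599 of all genes, and 24 of the 40 had an unadjusted p under 0.05, against 51.5% of all genes. Smaller shifts upwards included COL5A2 (log2 0.44 ± 0.09 SE, FDR = 0.00357), which pairs with COL5A1 in type V collagen, COL4A5 (0.56 ± 0.12, FDR = 0.00519), COL17A1 of hemidesmosomes (0.45 ± 0.09, FDR = 0.0025) and COL4A1 (0.23 ± 0.07, FDR = 0.0199). COL9A2, a chain of type IX collagen, had a log2 fold change of -0.57 ± 0.08 (FDR = 0.000631), just short of 1.5-fold. The fold changes of all tested collagens are plotted by class next to those of parental cells.

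**Figure D1:**
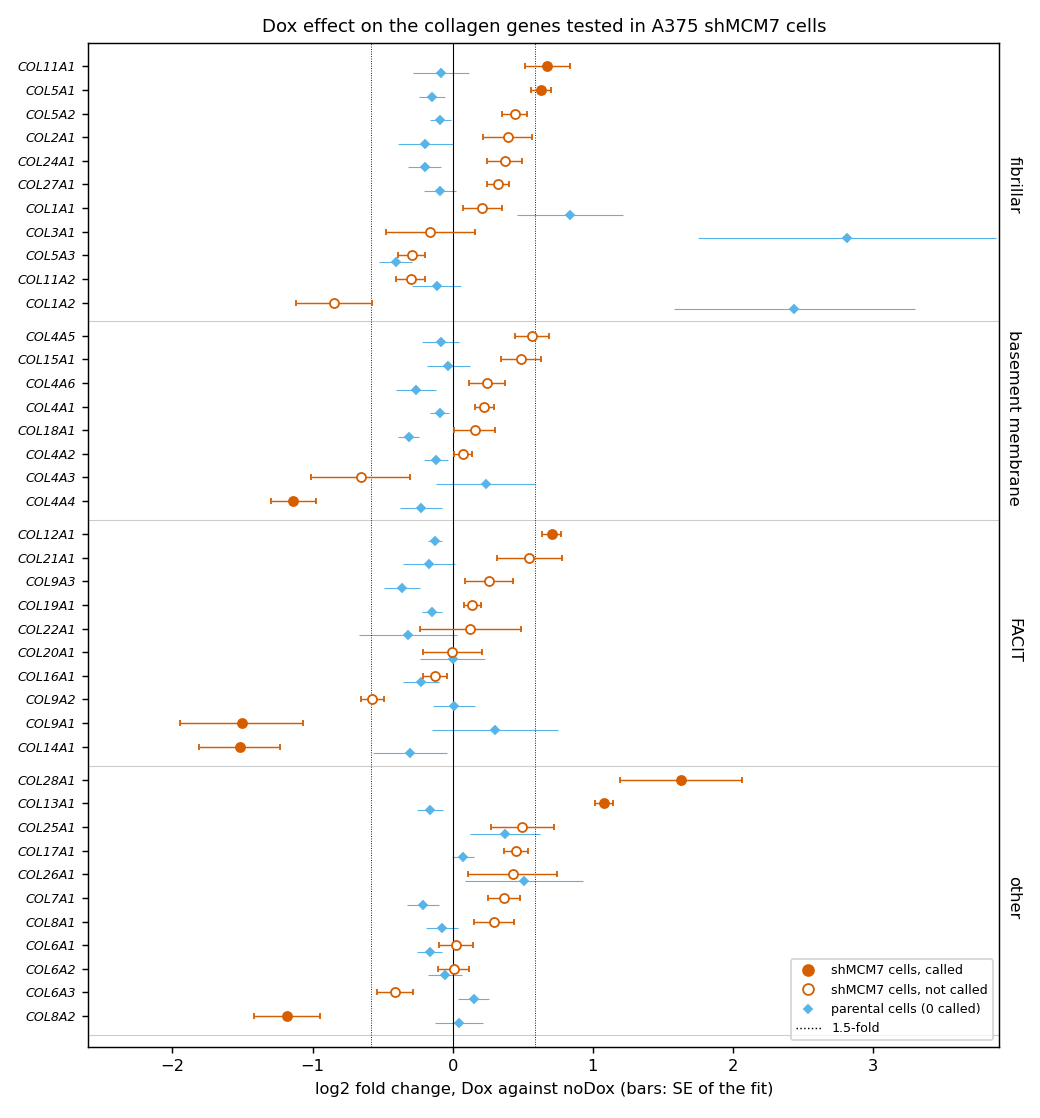
Log2 fold change with Dox against noDox for each collagen tested in A375 shMCM7 cells (circles, filled where called) and in parental cells (diamonds), grouped by class, with bars for the SE of the edgeR fit and dotted lines at 1.5-fold. In shMCM7 cells 5 genes are filled on the right and 4 on the left, and in parental cells 0 genes were called.

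By GENCODE 29 (GRCh38), the up-regulated genes lie on chromosome 10 from 69801867 to 69964275 (COL13A1), chromosome 6 from 75084326 to 75206051 (COL12A1), chromosome 9 from 134641774 to 134844843 (COL5A1), chromosome 1 from 102876467 to 103108872 (COL11A1) and chromosome 7 from 7356203 to 7535853 (COL28A1), and counts cover their exons. COL13A1, a transmembrane collagen of cell-matrix adhesions, was at 33.5, 30.8 and 31.1 CPM without Dox and at 70.4, 62.3 and 71.1 CPM with Dox in shMCM7 cells. Every library with Dox was higher than all 9 other A375 libraries, of which the highest had 34.7 CPM. The log2 fold change was 1.08 ± 0.06 (SE, n = 3 per group, FDR = 3e-05). COL12A1, which binds to the surface of type I collagen fibrils, was at 129, 111 and 108 CPM without Dox and at 190, 190 and 193 CPM with Dox. Its groups did not overlap, and the log2 fold change was 0.71 ± 0.07 (FDR = 9.62e-05). COL5A1, the chain of type V collagen that sets the width of fibrils, was at 73.3, 63.9 and 61.2 CPM without Dox and at 109, 97.9 and 104 CPM with Dox, also without overlap. Its log2 fold change of 0.63 ± 0.07 (FDR = 0.000195) lay near the limit of 1.5-fold, and it was not called without the library shMCM7 noDox 3. COL11A1, a chain of the minor fibrillar collagen of cartilage, was much lower, at 0.707, 0.616 and 0.562 CPM without Dox and at 0.899, 1.15 and 1 CPM with Dox. All 3 libraries with Dox were above those without, by a log2 fold change of 0.67 ± 0.16 (FDR = 0.00799), and the call was lost without the library shMCM7 Dox 2. COL28A1 had only 3, 5 and 6 counts without Dox and 24, 10 and 12 counts with Dox, which is close to the smallest level that could be seen. Its log2 fold change of 1.63 ± 0.44 (FDR = 0.0144) was not called by DESeq2 (adjusted p = 0.0776), nor in 3 of the 6 fits that leave out a library.

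The down-regulated genes lie on chromosome 2 from 227002711 to 227164453 (COL4A4), chromosome 1 from 36095236 to 36125220 (COL8A2), chromosome 8 from 120059780 to 120372036 (COL14A1) and chromosome 6 from 70215061 to 70303083 (COL9A1). COL4A4 encodes a chain of the type IV network found in kidney, lung and eye. It was at 0.83, 0.922 and 1.04 CPM without Dox and at 0.418, 0.479 and 0.389 CPM with Dox in shMCM7 cells. All 3 libraries with Dox were below every other A375 library, the log2 fold change was -1.14 ± 0.16 (FDR = 0.000553), and together with COL13A1 it was the collagen still called against a threshold of 1.5-fold (glmTreat). COL8A2, of the sheet-like collagen under corneal and vascular endothelium, was at 0.369, 0.409 and 0.612 CPM without Dox and at 0.218, 0.179 and 0.222 CPM with Dox. These groups did not overlap, with a log2 fold change of -1.18 ± 0.23 (FDR = 0.00328). COL14A1, a fibril-associated collagen of tendon and skin, was at 0.233, 0.409 and 0.262 CPM without Dox and at 0.0864, 0.126 and 0.109 CPM with Dox, again without overlap. Its log2 fold change was -1.52 ± 0.29 (FDR = 0.00258). COL9A1, of the type IX collagen that decorates cartilage fibrils, had 18, 24 and 16 counts without Dox and 6, 4 and 11 counts with Dox. Its log2 fold change of -1.51 ± 0.44 (FDR = 0.0201) was not called by DESeq2 (adjusted p = 0.0597), nor in 4 of the 6 fits that leave out a library, and its exons overlap AL160262.1 on the other strand, whose reads cannot be told apart unless the counting used strand. Same-numbered shMCM7 libraries with and without Dox deviated together from their group means, and a fit with the replicate number as a block also called the fibrillar gene COL1A2 down-regulated, for 5 up and 5 down. COL1A2 was at 0.167, 0.169 and 0.236 CPM without Dox and at 0.0899, 0.0948 and 0.138 CPM with Dox. Without the library shMCM7 noDox 1, which was low in MCM7, 4 collagens rose and 4 fell, since COL28A1 and COL9A1 lost their calls and COL9A2 gained one.

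**Figure D2:**
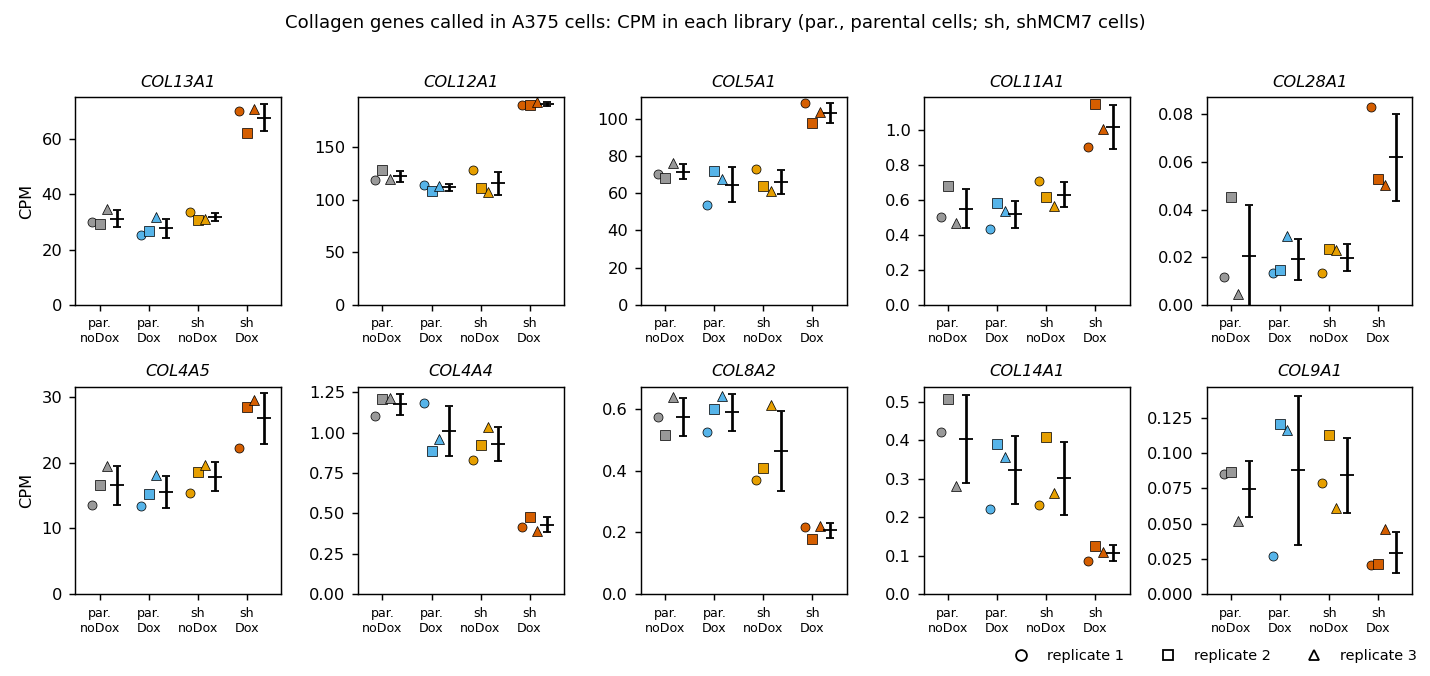
CPM in each A375 library for the 9 collagens called in shMCM7 cells and for COL4A5, with the mean and SD of the 3 replicates beside the points (linear axes from 0). In the upper row and for COL4A5 the shMCM7 Dox libraries hold the highest values, and in the other 4 panels of the lower row they hold the lowest or nearly the lowest.

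The bases upstream of the gene are shown for the called collagens that have such an entry lying at least in part outside the annotated gene, so that the start regions of genes that rose can be set beside that of a gene that fell. They are COL13A1 (chr10:69801656-69801866, plus strand, 211 bases), COL12A1 (chr6:75206054-75206303, minus strand, 250 bases), COL5A1 (chr9:134641553-134641773, plus strand, 221 bases) and COL8A2 (chr1:36125223-36125472, minus strand, 250 bases), from RefSeq on GRCh38.p14 and written 5′ to 3′ along the gene. Capitals mark matches on either strand to 5 motifs, the TATA box (TATAAA), the CCAAT box (CCAAT), the GC box (GGGCGG), the AP-1 site (TGANTCA) and the TEAD site (GGAATG).
COL13A1: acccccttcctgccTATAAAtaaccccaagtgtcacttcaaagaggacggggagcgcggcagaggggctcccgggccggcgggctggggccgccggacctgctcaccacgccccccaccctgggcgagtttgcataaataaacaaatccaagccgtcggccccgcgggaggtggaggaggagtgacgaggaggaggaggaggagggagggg
COL12A1: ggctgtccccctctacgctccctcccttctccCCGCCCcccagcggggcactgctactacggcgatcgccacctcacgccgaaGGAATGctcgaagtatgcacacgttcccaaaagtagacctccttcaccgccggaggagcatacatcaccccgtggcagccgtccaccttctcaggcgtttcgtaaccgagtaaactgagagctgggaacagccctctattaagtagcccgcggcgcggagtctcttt
COL5A1: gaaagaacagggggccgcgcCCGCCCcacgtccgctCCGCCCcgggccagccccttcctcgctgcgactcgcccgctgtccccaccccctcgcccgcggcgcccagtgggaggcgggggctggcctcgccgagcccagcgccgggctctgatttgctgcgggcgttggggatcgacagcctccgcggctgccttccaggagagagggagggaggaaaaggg
COL8A2: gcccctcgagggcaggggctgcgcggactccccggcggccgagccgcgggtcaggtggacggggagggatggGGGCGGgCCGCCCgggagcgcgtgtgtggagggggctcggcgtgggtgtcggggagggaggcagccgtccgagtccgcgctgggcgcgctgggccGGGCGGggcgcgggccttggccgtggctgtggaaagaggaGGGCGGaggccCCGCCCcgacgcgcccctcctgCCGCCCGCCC
The COL13A1 stretch holds 1 TATA box match and 0 of the other motifs, COL12A1 holds 1 GC box and 1 TEAD match, COL5A1 holds 2 GC box matches and COL8A2 holds 7, of which some overlap. RefSeq promoters were matched for 32 of the 44 collagens. In the 250 bases upstream of the start, the GC box letters occurred in 18 of these 32 (56.2%) and in 42.3% of all 27305 promoters, the CCAAT letters in 9 (28.1%) and 33.0%, the TATA letters in 5 (15.6%) and 11.1%, the TEAD letters in 1 (3.12%) and 11.9%, and the AP-1 letters in 0 of 32 and 6.6%. The median GC content was 65.2% for collagen promoters and 58.0% for all. The shared letters therefore did not part the genes that rose from COL8A2, since GC box matches were present in COL12A1, COL5A1 and COL8A2.

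Dox without an shRNA was the control for the drug itself. In A375 parental cells, 0 of 39 tested collagens were called with Dox, as were 0 (0%) of all 15993 genes tested by edgeR in either direction, with 7 collagens (17.9%) and 1121 genes (7.01%) at an unadjusted p under 0.05. DESeq2 called 0 collagens and 3 genes. The median log2 fold change of the collagens was -0.09. With the replicate block, COL1A1 was called up-regulated, but same-numbered parental libraries did not all deviate together. The values of COL1A1, COL1A2 and COL3A1, which make the interstitial collagens of types I and III and were singled out after their values were seen, rested on the library parental Dox 3. COL3A1 was at 0.162, 0.367 and 8.63 CPM in parental cells with Dox, and its highest value in the other 11 A375 libraries was 0.676 CPM. COL1A2 was at 0.128, 0.169 and 2.32 CPM, against at most 0.236 CPM elsewhere. COL1A1 was at 3.79, 4.52 and 13.1 CPM, against at most 6.32 CPM elsewhere. In each of these genes the other 2 parental Dox libraries did not exceed the highest library without Dox. Of the 10 fibroblast markers, POSTN was also high in parental Dox 3, at 3.63 CPM against 0.0877 to 0.183 CPM in the other 5 parental libraries, as were DCN (2.29 against 1.24 to 1.86 CPM), FBLN1 (9.56 against 5.91 to 7.52 CPM), PDPN (0.270 against 0.109 to 0.183 CPM) and, slightly, THY1 (0.0872 against 0.0540 to 0.0828 CPM), whereas LUM (9.39 CPM) lay inside the range of the others. For the remaining markers, the fitted log2 fold change with Dox over the parental groups was -0.002 for PDGFRA, 0.12 for PDGFRB, 0.15 for ACTA2 and -0.20 for S100A4. Of the 10 markers, 0 were called in that comparison. The summed level of the list was 266 CPM in parental Dox 3 and 227 to 276 CPM in the other parental libraries. No marker of the list was at 0 in parental Dox 3, and the part of other cells in these values was not tested. In bulk RNA, more cells of a type and more RNA per cell cannot be told apart.

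**Figure D3:**
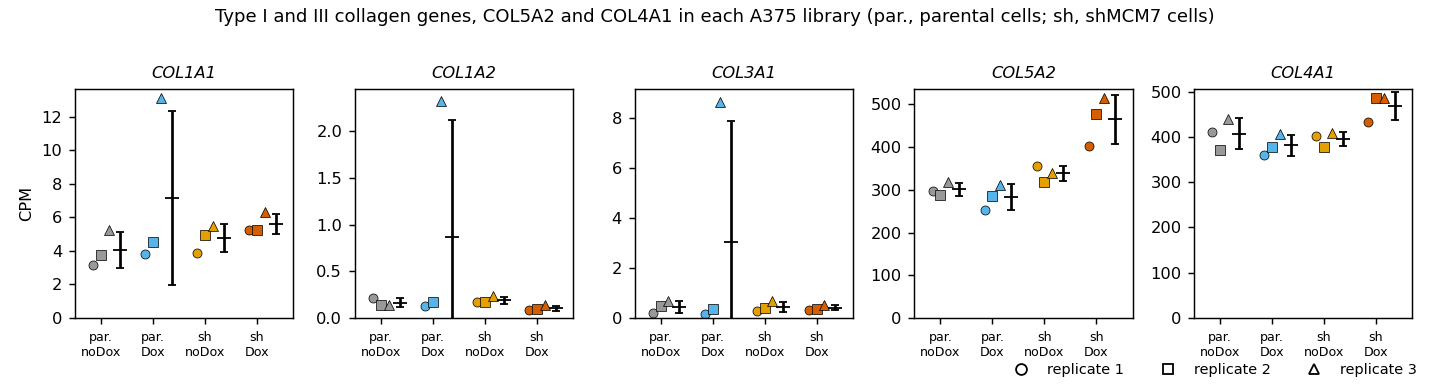
CPM in each A375 library for COL1A1, COL1A2, COL3A1, COL5A2 and COL4A1, with the mean and SD of the 3 replicates beside the points (linear axes from 0). One parental Dox library, replicate 3, stands far above all others in the first 3 panels. For COL5A2 the shMCM7 Dox libraries lie above all others. For COL4A1 parental noDox 3 (440 CPM) lies above shMCM7 Dox 1 (433 CPM).

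Whether Dox acted differently in shMCM7 and parental cells was tested as the difference of the Dox effects over the 12 A375 libraries, which include those of the comparisons above. COL13A1, COL12A1, COL5A1 and COL4A5 rose more in shMCM7 cells, and COL4A4 and COL8A2 fell more. These are 4 (10%) and 2 (5%) of 40 tested collagens, against 4.37% and 6.17% of all 16334 genes. The difference in log2 was 1.24 ± 0.12 for COL13A1 (SE, FDR = 2.03e-05), 0.83 ± 0.09 for COL12A1 (FDR = 2.58e-05) and 0.77 ± 0.13 for COL5A1 (FDR = 0.000729). Parental cells had 29.9, 29.1 and 34.7 CPM of COL13A1 without Dox and 25.1, 26.6 and 31.7 CPM with Dox. They had 119, 128 and 120 CPM of COL12A1 without Dox and 114, 108 and 113 CPM with Dox. Parental COL5A1 was at 70.4, 68.4 and 76.2 CPM without Dox and at 53.9, 71.9 and 67.9 CPM with Dox. None of these 3 genes thus had a higher mean with Dox in parental cells. COL4A5, a type IV chain of the kidney and skin basement membrane, was at 15.4, 18.6 and 19.6 CPM without Dox and at 22.2, 28.5 and 29.5 CPM with Dox in shMCM7 cells. In parental cells it was at 13.6, 16.6 and 19.5 CPM without Dox and at 13.4, 15.2 and 18.1 CPM with Dox. The difference of 0.65 ± 0.21 (FDR = 0.0303) was called in only 4 of the 12 fits that leave out a library. For the genes that fell, the difference was -0.92 ± 0.21 for COL4A4 (FDR = 0.00517) and -1.23 ± 0.28 for COL8A2 (FDR = 0.00552), and each was called in all 12 such fits. Parental COL4A4 was at 1.1, 1.21 and 1.22 CPM without Dox and at 1.18, 0.884 and 0.964 CPM with Dox. Parental COL8A2 was at 0.573, 0.515 and 0.638 CPM without Dox and at 0.526, 0.599 and 0.644 CPM with Dox, with overlapping groups. COL11A1 (0.76 ± 0.26, edgeR FDR = 0.038) and COL14A1 (-1.22 ± 0.42, FDR = 0.0427) missed only the limit on the unadjusted p, so that neither a difference nor its absence was shown for them. With the replicate block both were called, as was COL2A1 of cartilage fibrils, giving 6 collagens up and 3 down. Without parental Dox 3, which stood apart, 8 collagens were called in the upward and 3 in the downward direction, and without shMCM7 noDox 1, 7 and 3. Leaving out both of these libraries, a choice made after seeing the data, gave 8 and 2, with all 6 collagens named first among them. The share of all genes called in these fits is not given here, so the higher counts cannot be read as a stronger response of collagens.

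Between shMCM7 and parental A375 cells without Dox, no collagen differed by the limits used here. The shMCM7 group includes the library shMCM7 noDox 1, low in MCM7 at 128 CPM against 342 and 349 CPM in its replicates. In each of the 6 fits that leave out a library, that one included, 0 collagens were called. Of 39 tested collagens, 0 were called in either direction by edgeR, against 1.17% up and 0.478% down among 16093 genes, and 11 (28.2%) had an unadjusted p under 0.05, against 16.2% of all genes. DESeq2 also called 0 collagens. COL9A3, a chain of type IX collagen, had 235, 226 and 219 CPM in shMCM7 and 288, 291 and 329 CPM in parental noDox cells, without overlap, at a log2 fold change of -0.41 ± 0.06 (FDR = 0.00428), which is under 1.5-fold. Of the 10 fibroblast markers, 2 were called up and 0 down in shMCM7 noDox cells, with 7 log2 fold changes above 0 and 3 below. Those called were POSTN (log2 2.47 ± 0.27, FDR = 0.00101) and PDPN (1.57 ± 0.28, FDR = 0.0158). The part of these markers in the collagen values was not tested.

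Several collagen genes lie head to head and share the region between their start sites, which allows the members of a pair to be compared. COL4A1 and COL4A2, whose chains form the most widespread type IV trimer, start 1421 bases apart on opposite strands of chromosome 13. As annotated, these 2 genes overlap, since COL4A2 starts at 110305812, inside COL4A1 (110148963 to 110307233). COL4A1 was at 401, 377 and 408 CPM without Dox and at 433, 487 and 485 CPM with Dox in A375 shMCM7 cells. COL4A2 was at 756, 693 and 748 CPM without Dox and at 765, 744 and 831 CPM with Dox. Groups were separate for COL4A1 and overlapped for COL4A2 (log2 0.07 ± 0.06, FDR = 0.361), and COL4A2 overlaps antisense genes on the other strand. Parental cells had 410, 371 and 440 CPM of COL4A1 without Dox and 360, 378 and 405 CPM with it. COL4A3 and COL4A4 start 112 bases apart on chromosome 2. COL4A3 was far lower than its partner, at 0.0834, 0.0611 and 0.057 CPM without Dox and at 0.0519, 0.0316 and 0.0419 CPM with Dox, and its log2 fold change of -0.66 ± 0.35 (FDR = 0.158) had the sign of that of COL4A4 without passing the test. COL4A5 and COL4A6 start 347 bases apart on the X chromosome. COL4A6, which pairs with COL4A5 in the basement membrane of smooth muscle and skin, was at 3.99, 5.12 and 4.59 CPM without Dox and at 4.69, 5.71 and 6.06 CPM with Dox, an overlap with a log2 fold change of 0.25 ± 0.13 (FDR = 0.147). The start sites of other neighbours lie further apart. Those of COL3A1 and COL5A2, which lie tail to tail on chromosome 2, are 250992 bases apart. Those of COL6A1 and COL6A2, on the same strand of chromosome 21, are 116360 bases apart. COL5A2 was at 355, 319 and 341 CPM without Dox and at 403, 478 and 516 CPM with Dox, whereas COL3A1 was at 0.272, 0.386 and 0.669 CPM without Dox and at 0.339, 0.353 and 0.519 CPM with Dox. Of the type VI chains, COL6A1 was at 153, 143 and 157 CPM without Dox and at 189, 122 and 156 CPM with Dox. COL6A2 was at 44.9, 42.6 and 46.8 CPM without Dox and at 52.6, 36.4 and 47.5 CPM with Dox. In both of these genes shMCM7 Dox 1 was highest and shMCM7 Dox 2 lowest, and the fitted log2 fold changes were 0.02 ± 0.12 and 0.01 ± 0.11. COL6A3, the third type VI chain tested and encoded elsewhere on chromosome 2, differed from them, at 13.1, 9.19 and 11.7 CPM without Dox and at 9.30, 8.93 and 7.70 CPM with Dox (log2 -0.41 ± 0.13, edgeR FDR = 0.0267, under 1.5-fold).

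Genes that make, bind or degrade collagen were described from lists written with earlier results of these data known. In A375 shMCM7 cells with Dox, 2 of 6 crosslinking enzymes rose and 0 fell. As given above, 5.58% of all genes rose and 6.45% fell, so that a list of 10 to 22 genes would hold about 1 in each direction at those shares. LOXL2 (log2 0.66 ± 0.06, FDR = 9.31e-05) and LOXL3 (0.85 ± 0.12, FDR = 0.000496) are lysyl oxidase-like enzymes that crosslink fibrils. LOXL2 was at 147, 143 and 155 CPM without Dox and at 231, 225 and 258 CPM with Dox. LOXL3 was at 255, 184 and 179 CPM without Dox and at 372 to 376 CPM with Dox in all 3 libraries. Both genes had separate groups, and both were also called in the difference from parental cells. In that test, 2 of the 6 crosslinking enzymes were called up and 1 was called down, against 4.37% and 6.17% of all genes. Of 22 modifying enzymes and chaperones, 1 rose and 1 fell, namely the prolyl isomerase FKBP7 (0.65 ± 0.11, FDR = 0.00148) and the cation channel TMEM38B of the endoplasmic reticulum (-0.77 ± 0.07, FDR = 6.45e-05). Of 17 export and propeptide processing genes, 0 rose and 1 fell, ADAMTS3, a procollagen N-proteinase (-0.67 ± 0.10, FDR = 0.000569). Of 10 tested collagen receptors, ITGA11 rose (0.84 ± 0.10, FDR = 0.000201) and ITGA10 fell (-0.65 ± 0.14, FDR = 0.00449), each an alpha subunit of a collagen-binding integrin. Of 12 collagen-degrading proteases, 0 rose and 1 fell, the gelatinase MMP9 (-1.24 ± 0.24, FDR = 0.00307). TGF-beta pathway genes moved both ways. The ligand TGFB2 (1.16 ± 0.20, FDR = 0.00168) and the receptor TGFBR2 (0.84 ± 0.07, FDR = 6.19e-05) rose, while the ligands TGFB1 (-0.75 ± 0.08, FDR = 0.000149) and TGFB3 (-0.71 ± 0.11, FDR = 0.00108) and the latency protein LTBP1 (-0.71 ± 0.08, FDR = 0.000238) fell. Marker genes of other cells also moved. Of 10 fibroblast markers, PDGFRB and POSTN rose and LUM and FBLN1 fell, with a summed level of 222 to 260 CPM with Dox and 225 to 245 CPM without it. Of the 6 melanocyte markers tested, PMEL and DCT fell, with a summed level of the 8 listed of 566 to 670 CPM with Dox and 638 to 667 CPM without it, and of the 6 epithelial markers tested, EPCAM rose, with a sum over the 9 listed of 370 to 476 CPM with Dox and 346 to 405 CPM without it. No fibroblast marker was at 0 in these libraries, and the part of these markers in the collagen values was not tested.

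The lines differed in most collagens. Over 12 libraries each, 25 of 39 tested collagens were higher in A375 and 13 were lower, against 33% and 27.6% of all 16305 genes, and COL5A1 was not called (log2 -0.44 ± 0.21, FDR = 0.0531). Line and sequencing depth cannot be told apart in this comparison. Of the 25 genes higher in A375, 12 had an A549 median at or under the floor of 3 counts and passed the filter through the deeper A375 libraries, so the count is no support for a difference of the collagens as a whole. With at least 10 counts in every library, 20 collagens could be tested, and 11 were higher and 8 lower in A375. COL3A1 and COL1A2, which rest in part on the library parental Dox 3, are among the 12. In CPM per kb of exon, a scale that allows genes to be compared, the highest collagens in A375 were COL9A3 with a median of 53.4 (36.3 to 76.7), COL5A2 with 42.7 (33.8 to 69.2), COL4A2 with 39.0 (33.9 to 45.6), COL6A1 with 29.3 (22.9 to 36.0) and COL4A1 with 27.6 (24.4 to 33.0). Each of these ranges overlapped the next. In A549, the highest were the epithelial anchoring fibril gene COL7A1 with 40.6 (20.4 to 48.4), COL5A2 with 22.8 (19.6 to 47.0), COL18A1, the precursor of endostatin, with 21.3 (12.9 to 59.6), COL4A2 with 9.87 (6.56 to 17.9) and COL6A1 with 7.15. This order did not hold in every A549 library, since in the libraries labelled shMCM7 Dox 3, shMCM7 noDox 2 and parental noDox 2 COL18A1 (59.6, 56.5 and 38.1 CPM per kb) was above COL7A1 (43.4, 43.1 and 27.4 CPM per kb). COL9A3 had only 0 to 4 counts in A549 libraries, a level at or near the floor, and it shares exon sequence with TCFL5 on the other strand. COL19A1, a FACIT gene singled out for its counts of 0, with a median of 32.9 CPM in A375, had 0 counts in all 12 A549 libraries and was at least 196-fold higher in A375 (floor of 3 counts per library). Type IV chains split by pair between the lines. COL4A1 (log2 1.47 ± 0.27) and COL4A2 (1.83 ± 0.14) were higher in A375, while COL4A3 (-7.34 ± 0.25), COL4A4 (-4.73 ± 0.19), COL4A5 (-1.42 ± 0.10) and COL4A6 (-3.30 ± 0.07) were higher in A549, all at an edgeR FDR of at most 2.74e-05. When the 3 A549 libraries low in MCM7 were left out, a choice made after seeing the data, 24 collagens were higher and 13 lower in A375, of 40 tested.

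**Figure D4:**
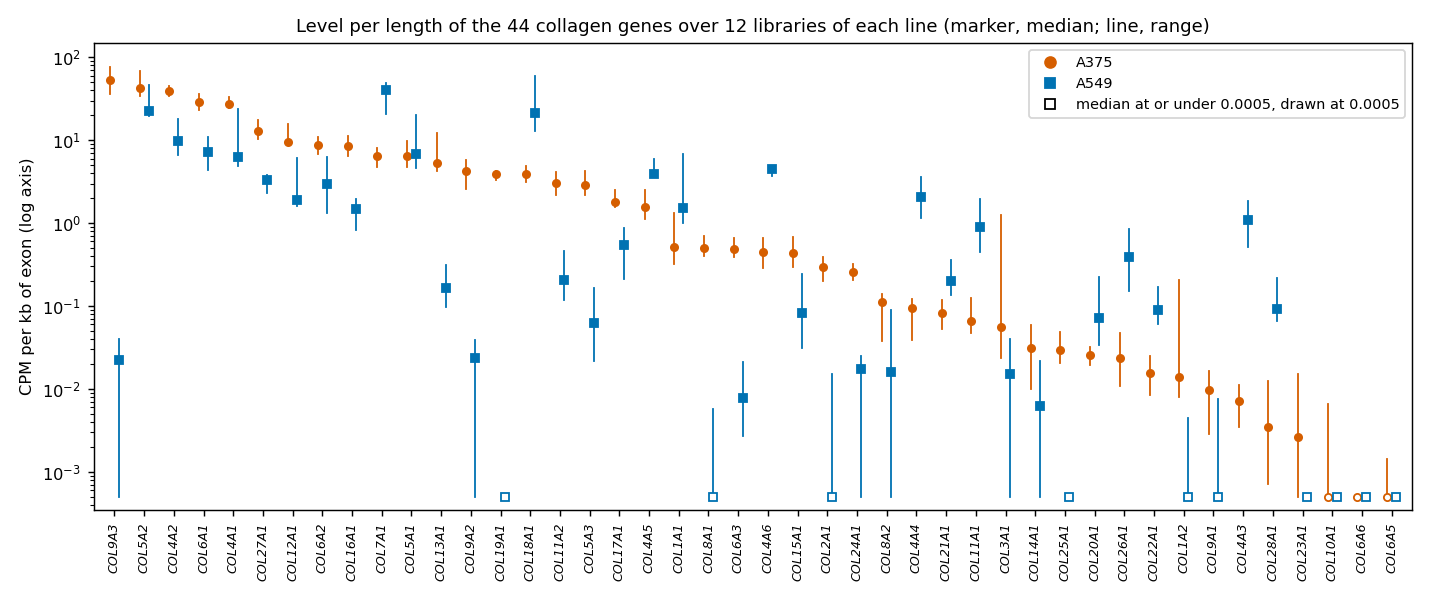
Level of each of the 44 collagens in CPM per kb of exon (log axis) in A375 and A549, as the median (marker) and range (line) of the 12 libraries of each line, ordered by the A375 median. Values of 0.0005 or less are drawn at 0.0005, and open markers show a median there. COL9A3, COL5A2 and COL4A2 lead in A375, and COL7A1, COL5A2 and COL18A1 in A549.

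By label, no collagen was called with Dox in A549, where the labels and the study's own names put the libraries in different groups. Among the libraries labelled shMCM7, 0 of 26 tested collagens and 0 (0%) of 13550 genes were called by edgeR in either direction, with 0 collagens and 61 genes at an unadjusted p under 0.05, and DESeq2 called 0 genes. Among those labelled parental, 0 of 25 tested collagens and 0 (0%) of 13494 genes were called, with 1 collagen and 1137 genes at an unadjusted p under 0.05. These groups mix libraries low and high in MCM7, as the values of MCM7 above show, so that the counts of 0 do not bear on the knock-down. DESeq2 called 0 collagens there as well, and 9 genes. With shMCM7 Dox 3 and shMCM7 noDox 2 both left out, a choice made after seeing the data, 0 of 26 collagens were called among the libraries labelled shMCM7.

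Library by library, 13 of 26 A549 collagens with a mean of at least 10 counts had their 3 highest values in the libraries labelled shMCM7 Dox 3, shMCM7 noDox 2 and parental noDox 2, which are those low in MCM7, against 20.7% of 13496 genes. Their 3 lowest values lay there for 0 of the 26 collagens and 18.4% of the genes. By class, the 13 were 7 of 8 basement membrane, 4 of 6 fibrillar, 2 of 5 FACIT and 0 of 7 other collagens. Although the study's own names make these libraries the shMCM7 cells with Dox, groups follow the labels here, so these values have no mean, fold change or test. In that order of libraries, COL4A1 was at 347, 342 and 352 CPM, and the other 9 libraries lay between 72.0 and 113 CPM. COL4A2 was at 344, 346 and 287 CPM, with the others between 126 and 220 CPM. The basement membrane gene COL18A1 was at 508, 482 and 325 CPM, with the others between 110 and 205 CPM. All 3 genes separated the libraries in the same way. Fibrillar genes showed this as well, with COL5A1 at 226, 208 and 172 CPM against 51.5 to 95.6 CPM, and COL5A2 at 350, 306 and 316 CPM against 146 to 177 CPM. COL1A1, named after its values were seen, was at 66.7, 65.6 and 58.7 CPM against 9.73 to 21 CPM. COL11A1 was at 12.6, 12.4 and 17.7 CPM against 4.1 to 11.3 CPM. The FACIT gene COL12A1 was at 74.9, 72.4 and 75.5 CPM against 19.9 to 25.3 CPM. COL4A3 (17, 14.6 and 17 CPM against 4.68 to 10.6 CPM) and COL4A4 (34.7, 28.8 and 36.3 CPM against 11.7 to 24.9 CPM) had their highest values in these libraries too, whereas in A375 COL4A4 was lowest in the libraries labelled shMCM7 Dox.

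Other A549 collagens did not separate these libraries. COL7A1 was at 481, 478 and 303 CPM in them, inside the range of 226 to 536 CPM of the others. COL4A6 was at 37.9, 44.5 and 43.9 CPM, inside the 34.0 to 44.6 CPM of the others, although its neighbour COL4A5 was at 57.2, 64.5 and 70.7 CPM against 43.0 to 49.1 CPM. COL27A1, a fibrillar gene of cartilage named here after its values were seen, was at 46.1, 48.5 and 36.1 CPM, within 32.6 to 53.5 CPM. COL13A1, the gene with the clearest rise in A375, was near 1 CPM in every A549 library, at 1.32, 0.995 and 0.575 CPM in the same 3 and at 0.682 to 1.85 CPM in the others. Summed over each class, these libraries had 1346, 1323 and 1134 CPM of basement membrane collagens against 421 to 643 CPM, 705, 644 and 602 CPM of fibrillar collagens against 277 to 323 CPM, 92.6, 90.6 and 88.6 CPM of FACIT collagens against 35.3 to 44.4 CPM, and 572, 577 and 368 CPM of the other types against 262 to 590 CPM. Of the marker lists, fibroblast markers summed to 739, 647 and 643 CPM in these libraries and to 597 to 817 CPM in the other 9, with DCN, POSTN and PDPN at 0 in all 12, while THY1 was at 12.1, 18 and 15 CPM against 4.67 to 7.43 CPM. Their part in the collagen values was not tested.

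**Figure D5:**
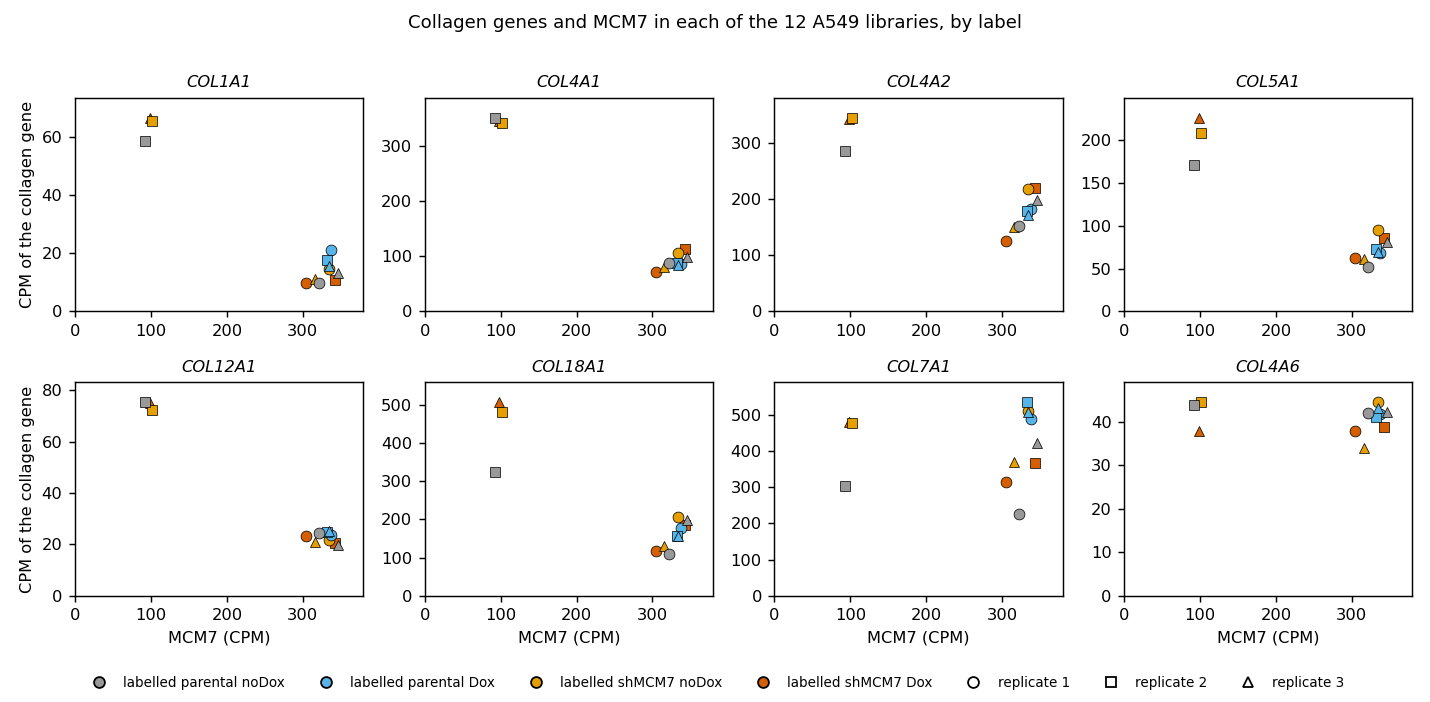
CPM of 8 collagens against CPM of MCM7 in each of the 12 A549 libraries, coloured by label, with the replicate number as the shape (linear axes from 0). The 3 libraries with MCM7 near 100 CPM carry 3 different labels, and they lie above the others for COL1A1, COL4A1, COL4A2, COL5A1, COL12A1 and COL18A1 but not for COL7A1 and COL4A6.

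In A375, levels were also summed over the members of each class. Fibrillar collagens summed to 649, 612 and 631 CPM without Dox and to 784, 812 and 914 CPM with Dox in shMCM7 cells, without overlap, and to 582, 597 and 673 CPM and 489, 587 and 657 CPM in parental cells. Basement membrane collagens summed to 1215, 1126 and 1210 CPM without Dox and to 1271, 1296 and 1388 CPM with Dox in shMCM7 cells. In parental cells they summed to 1263, 1135 and 1386 CPM without Dox and to 1060, 1172 and 1258 CPM with Dox, so that the parental libraries overlapped both shMCM7 groups. COL5A2 and COL5A1 made up most of the fibrillar sum, and COL4A1 and COL4A2 most of the basement membrane sum. FACIT collagens summed to 495, 464 and 445 CPM without Dox and to 684, 499 and 571 CPM with Dox in shMCM7 cells, where COL9A3 (235, 226 and 219 CPM, then 371, 200 and 255 CPM) gave most of the spread. In parental cells FACIT collagens summed to 552, 574 and 612 CPM without Dox and to 397, 522 and 531 CPM with Dox. Parental libraries without Dox thus overlapped the shMCM7 libraries with Dox. The other types summed to 333, 304 and 318 CPM without Dox and to 433, 325 and 387 CPM with Dox in shMCM7 cells. Their parental sums were 349, 324 and 396 CPM without Dox and 281, 338 and 352 CPM with Dox.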

How the data were processed

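RNA of 24 libraries (8 groups of 3) was sequenced. The authors trimmed, aligned and counted the reads, and the tables they deposited hold raw counts per gene by Ensembl identifier, not normalised. The submitters' processing notes name bcl2fastq 2.19, Trimmomatic, STAR 2.7.1, featureCounts, edgeR and GRCh38.p10. The strand setting of the counting is not given in the sources used here. Of the 21386 identifiers, 21349 were found in GENCODE 29, which gave names, exon lengths and positions (GRCh38).

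Counts were tested in R 4.3.3 with edgeR 4.0.16 (TMM, filterByExpr, glmQLFit, glmQLFTest, 1 coefficient per group) over all genes of the libraries compared, with Benjamini-Hochberg adjustment. Tables and figures were made in Python 3.11.15. The steps were tested on simulated data. SE values come from the fitted change and its F statistic. Groups follow the labels. The members and gene lists were chosen with earlier results of these data known. Given with a value per library were the collagens called in A375 shMCM7 cells or in the difference of Dox effects or in a parental or baseline comparison, those of neighbouring pairs, and the 5 highest per length in each line. Of the other lists, called members were named, except that 1 result of the TGF-beta list and the count over that list are not reported here. The lines were compared over 12 libraries each, by the mean of the group coefficients.

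Alternatives were DESeq2 1.42.0 and its size factors, no filter, at least 10 counts in every library, glmTreat, a shared dispersion, the replicate number as a block, and leaving out each library. Libraries sharing a replicate number deviated together across genes (log2 of CPM plus 0.5, minus the group mean). The r was 0.341, 0.198 and 0.340 in A375 shMCM7 cells with and without Dox, and 0.515, 0.490 and 0.531 between shMCM7 and parental noDox cells. This was taken as pairing, but the main fits hold no term for it. The replicate number entered only in the alternative fit with the block. No replicates were identical (chi-square per degree of freedom at least 1.95 over 24 pairs). Promoter sequences were read from a RefSeq table (GRCh38.p14), leaving out bases inside the GENCODE gene.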

Additional observations from a re-analysis of the deposited data

Results flagged for a closer look

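6 collagens had a Dox effect that differed between A375 shMCM7 and parental cells in the test of the difference itself (edgeR over 12 libraries). The difference in log2, shMCM7 minus parental, was 1.24 for COL13A1, 0.83 for COL12A1, 0.77 for COL5A1 and 0.65 for COL4A5, and -0.92 for COL4A4 and -1.23 for COL8A2. With each library left out in turn it ranged from 1.17 to 1.35 for COL13A1, from 0.79 to 0.92 for COL12A1, from 0.66 to 0.86 for COL5A1 and from 0.52 to 0.77 for COL4A5. The ranges were -1.003 to -0.79 for COL4A4 and -1.36 to -0.97 for COL8A2.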

How the results depend on the processing

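Of 228 recomputed counts of called collagens, 215 stayed within 1.5 times the reported count. The reported count was 0 in both directions in A375 parental cells, between the A375 noDox groups and in both A549 comparisons by label. There a recomputed 0 counted as within that limit, and the 215 include such cases. Of 229 recomputed fold changes of called collagens, 196 kept the call, 33 kept the direction without the call and 0 turned. The test against a 1.5-fold change (glmTreat) called 1 collagen up and 1 down in A375 shMCM7 cells, and 1 up and 0 down in the difference of Dox effects. Over the fits that each leave out 1 library, 4 to 6 collagens were called up and 3 to 5 down in A375 shMCM7 cells, and 3 to 8 up and 2 to 7 down in the difference of Dox effects, with 7 down without parental Dox 1, 4 down without shMCM7 Dox 1, 7 up without shMCM7 noDox 1 and 8 up without parental Dox 3. Without both shMCM7 noDox 1 and parental Dox 3, 8 were called up. The share of all genes called in these fits is not given here. By label in A549 parental libraries, 0 to 1 were called up, with COL7A1 called without parental noDox 3. With at least 10 counts in every library, 11 collagens were higher and 8 lower in A375 than in A549, of only 20 tested. A375 counts rest on deep libraries, while in A549 18 of 44 collagens could not be tested by label in shMCM7 cells. For the other values the cause was not tested.

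The replicate block gave 5 up and 5 down in A375 shMCM7 cells, 1 up (COL1A1) in parental cells, and 6 up and 3 down in the difference of Dox effects. In parental cells the same-numbered libraries correlated with r of 0.277, -0.101 and 0.510, so their numbers were not taken as pairs. Nor were those in A549, where r lay between -0.717 and 0.216. The block fits, that of the difference of Dox effects included, used the numbers of parental libraries all the same. The block changed no other call of a collagen.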

Other observations

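The genes that stood furthest above all other A375 libraries in parental Dox 3, chosen after their values were seen and ranked by the ratio of CPM with 0.05 added, were COL3A1, LRRN1, COL1A2, SPON1 and KERA. LRRN1 was at 0.611 CPM there and at most 0.0235 CPM elsewhere, and SPON1, a secreted matrix protein, at 0.577 CPM and at most 0.0263 CPM. KERA, a corneal proteoglycan, had 63 counts (0.262 CPM) in that library and 0 in the other A375 libraries. Next in rank were ALOX12 (0.262 CPM against at most 0.00837 CPM) and FNDC1 (0.166 CPM against at most 0.00675 CPM). They were followed by GJA1 (0.249 CPM against at most 0.0527 CPM), POTEJ (0.0955 CPM against at most 0.00346 CPM) and SFRP2 (0.233 CPM against at most 0.0579 CPM). The part of other cells in these values was not tested.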
